A study of Mus musculus with 3 samples.

Results

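A set of 10 genes of the Nrf2 antioxidant response, of heme breakdown and of metal binding were followed across the HI-Panc pancreatic cancer model: the transcription factor gene Nfe2l2, its known targets Nqo1, Hmox1, Gclc, Gclm, Txnrd1, Srxn1 and Slc7a11, and the metallothionein genes Mt1 and Mt2. They were taken by gene symbol from a table of FPKM (fragments per kilobase of transcript, scaled to the mapped fragments of a library), where all 10 were found among 22757 named genes. RNA-seq was made of 3 cell lines of the mouse (Mus musculus), with 1 library for each of a localized (HI-Panc-L), an invasive (HI-Panc-I) and a metastatic (HI-Panc-M) stage. All 3 lines derive from tumours of transgenic mice that carry p16-/-, arose without immortalization and were cultured in DMEM with 10% fetal bovine serum. The tissue of origin is labelled body wall for HI-Panc-L, pancreatic tissue for HI-Panc-I and liver for HI-Panc-M, so that stage and labelled tissue do not match for the first pair. Libraries were assigned by the stage label. A treatment text common to the samples describes hypoxic models made with cobalt chloride at 100 ng/ml for 24 h, and does not state whether these libraries came from treated cells. Each line has 1 library (n = 1), so no difference below has a replicate check and no test was made.

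Nrf2, the protein encoded by Nfe2l2, is held low by Keap1, which presents it to a Cul3 ubiquitin ligase for degradation. Oxidants and electrophiles that modify Keap1 let Nrf2 accumulate, pair with small Maf proteins and bind antioxidant response elements (ARE) beside genes for glutathione synthesis, thioredoxin recycling and quinone reduction. Because that control acts on the protein, the level of Nfe2l2 RNA is not a measure of Nrf2 activity. Hmox1 answers to heme, to metals and to the loss of the repressor Bach1 as well as to Nrf2, and cobalt is among its known inducers. Metallothioneins are small cysteine-rich proteins that bind zinc and copper, and their genes are switched on by the zinc sensor Mtf1 through metal response elements (MRE). In pancreatic cancer the Nrf2 programme is known for its part in detoxification and redox balance of the tumour cells.

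The 250 bases before the RefSeq start of 5 members are shown because they place the letters of these elements beside genes with their highest values in the localized library (Gclm, Srxn1 and Nqo1) and genes that stayed within 1.5-fold in every pair (Mt2 and Mt1). Sequences are from RefSeq on GRCm38.p6, printed 5′ to 3′ on the strand of the gene. The windows are chr3:122245307-122245556 on the plus strand for Gclm, chr2:152105274-152105523 on the plus strand for Srxn1, chr8:107403206-107403455 on the minus strand for Nqo1, chr8:94172368-94172617 on the plus strand for Mt2 and chr8:94178839-94179088 on the plus strand for Mt1. Capitals mark matches on either strand to TGACNNNGC (the ARE core), TGANTCA (the AP-1 site, whose letters can overlap an ARE core) and TGCACNC or TGCGCNC (the MRE core).
Gclm: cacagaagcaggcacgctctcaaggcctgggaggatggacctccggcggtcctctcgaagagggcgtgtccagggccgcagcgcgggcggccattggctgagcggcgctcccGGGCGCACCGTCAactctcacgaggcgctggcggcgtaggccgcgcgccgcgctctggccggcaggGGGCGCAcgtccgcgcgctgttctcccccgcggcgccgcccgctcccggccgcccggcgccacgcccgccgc
Srxn1: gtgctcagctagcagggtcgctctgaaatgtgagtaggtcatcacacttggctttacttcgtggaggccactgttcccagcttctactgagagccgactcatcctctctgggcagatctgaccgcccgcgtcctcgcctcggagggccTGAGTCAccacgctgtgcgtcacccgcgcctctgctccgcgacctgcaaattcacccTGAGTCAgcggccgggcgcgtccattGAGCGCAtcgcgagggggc
Nqo1: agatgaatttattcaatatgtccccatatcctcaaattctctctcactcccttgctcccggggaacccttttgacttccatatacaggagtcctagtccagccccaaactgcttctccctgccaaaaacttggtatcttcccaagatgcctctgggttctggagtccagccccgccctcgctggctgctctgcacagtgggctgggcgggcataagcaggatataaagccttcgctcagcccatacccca
Mt2: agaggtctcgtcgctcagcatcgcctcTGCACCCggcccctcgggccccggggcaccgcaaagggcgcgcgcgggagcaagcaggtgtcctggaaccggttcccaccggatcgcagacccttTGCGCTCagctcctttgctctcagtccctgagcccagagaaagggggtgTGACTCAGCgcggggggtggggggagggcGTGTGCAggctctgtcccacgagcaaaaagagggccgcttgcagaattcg
Mt1: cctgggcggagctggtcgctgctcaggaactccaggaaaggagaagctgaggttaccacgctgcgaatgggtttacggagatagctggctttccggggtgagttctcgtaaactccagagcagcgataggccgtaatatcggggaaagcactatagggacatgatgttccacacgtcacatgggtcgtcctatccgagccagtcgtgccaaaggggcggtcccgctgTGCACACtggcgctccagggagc

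Gclm had 1 ARE core match, on the reverse strand from 134 to 126 bases before the start, running into 1 of its 2 MRE core matches. Srxn1 had no match to the letters TGACNNNGC and 2 AP-1 sites, at 102 to 96 and at 45 to 39 bases before the start. The latter site is followed by gc (TGAGTCAgc), and forms of the ARE other than TGACNNNGC were not searched. Nqo1 had none of the letters marked in this window. Mt2 had 3 MRE core matches and a sequence at 79 to 71 bases before the start that matches both the ARE core and the AP-1 site, while Mt1 had a single MRE core match. The Mt2 window ends at 94172617, short of the annotated start of the gene at 94172664, and the distances given are from the RefSeq start. The Mt1 window ends at 94179088, next to the annotated start of the gene at 94179082. Mt1 has transcripts of 1085 and 549 bases, and bases before any later start were not searched. The MRE counts of Mt1 and Mt2 thus hold for these windows only. Among 32851 promoter windows of the same length, 10.2% held an ARE core, 6.75% an AP-1 site and 21.4% an MRE core, and 1.26% held 3 or more MRE core matches. Of the 10 members 8 had a promoter in the table, and those not printed gave an ARE core match for Nfe2l2 and for 1 of the 3 starts of Txnrd1, and no match for Slc7a11. Such matches describe letters only, and the windows hold no measurement of binding.

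The largest differences were in Nqo1 and Hmox1, both highest in the localized library. Differences were computed in log2(FPKM + 1), and a gene was called higher or lower at a difference of at least 1 (2-fold) among the 11404 genes with a mean of at least 1 FPKM, a filter that all 10 members passed. The invasive library had 3 members at least 2-fold lower than the localized library (Nqo1, Hmox1 and Gclm) and 0 higher, where 6.07% of all genes were lower and 8.78% higher. The metastatic library had 3 lower than the localized library (Nqo1, Hmox1 and Slc7a11) and 0 higher, against 7.29% and 9.08% of all genes. Between the metastatic and invasive libraries 1 member, Nqo1, was higher and 0 were lower, against 1.33% and 1.67% of all genes. The first and second comparisons use the same localized library and are not independent of each other. The median difference of the 10 members was -0.54, -0.31 and 0.21 in the order of these comparisons, where that of all genes counted was -0.0014, 0.0041 and -0.0086. At a lower threshold of 1.5-fold, 5 members were lower in the invasive than the localized library and 1 was higher, against 11.9% and 15.1% of all genes. The metastatic library then had 5 members lower and 0 higher than the localized library, against 14.1% and 15.9%. Against the invasive library it again had 1 member higher and 0 lower, against 3.51% and 5.35%.

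**Figure D1:**
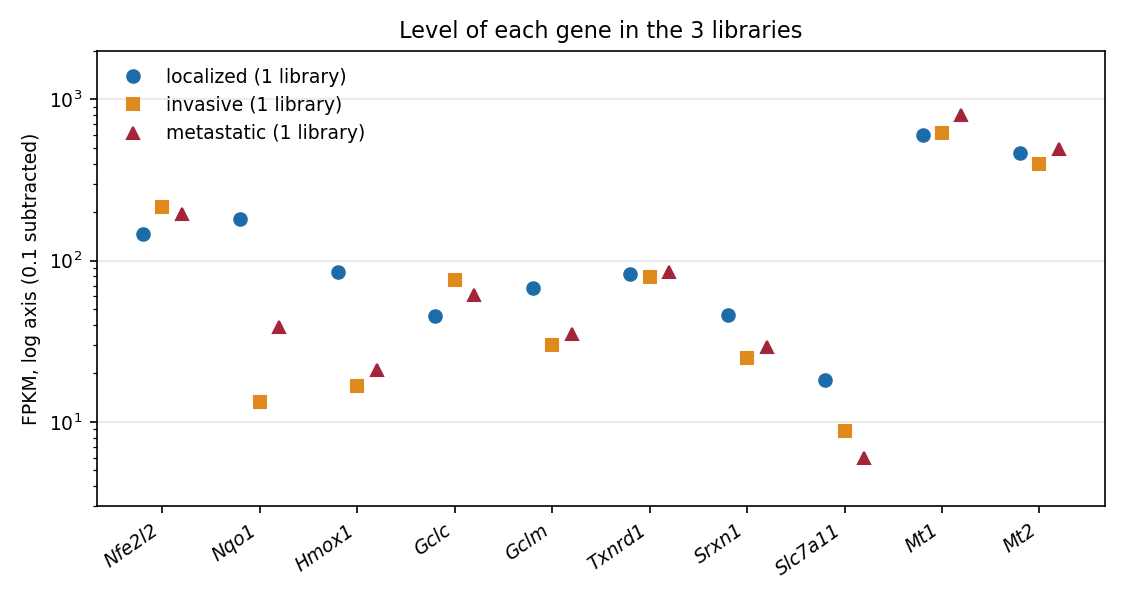
FPKM (log axis) of the 10 genes in the localized (circle), invasive (square) and metastatic (triangle) libraries, 1 library each and thus without error bars. Nqo1 spans 13.4 to 182 FPKM and Hmox1 16.8 to 84.9, whereas the 3 points of Txnrd1 lie between 79.7 and 84.9 FPKM.

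Nfe2l2 itself (GRCm38 chromosome 2, 75675513 to 75704641, minus strand) had 147, 214 and 194 FPKM in the localized, invasive and metastatic libraries. It was thus lowest in the library in which 5 of its targets, Nqo1, Hmox1, Gclm, Srxn1 and Slc7a11, were highest. Among all genes counted, 41.6% were highest in the localized library. The other targets did not share this order. Gclc was lowest there (45.3 FPKM against 75.7 and 61.6), and Txnrd1 had 83.2, 79.7 and 84.9 FPKM. For Nfe2l2 the invasive over localized ratio was 1.46, with a 95% counting interval of 1.43 to 1.49, and the metastatic over localized ratio was 1.32 (1.29 to 1.35). These intervals rest on fragment numbers estimated from the FPKM values and cover counting error only, not differences between cultures. Among the genes counted, 29.6% differed at least as much as Nfe2l2 between the invasive and localized libraries.

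Nqo1 encodes a quinone reductase that uses NAD(P)H and is a standard readout of Nrf2 activity (chromosome 8, 107388225 to 107403206, minus strand). It had 182 FPKM in the localized, 13.4 FPKM in the invasive and 38.7 FPKM in the metastatic library. The localized library was highest and the invasive library lowest, and each pair was past 2-fold. The localized library was 13.6-fold above the invasive library (95% counting interval 12.6 to 14.6) and 4.69-fold above the metastatic library (4.48 to 4.90), and the metastatic library was 2.90-fold above the invasive library (2.67 to 3.15). On the log2 scale these were differences of -3.67, -2.20 and 1.47 in the order invasive minus localized, metastatic minus localized and metastatic minus invasive. Only 1.18% of genes differed as much between the invasive and localized libraries, and 1.26% between the metastatic and invasive libraries. Its relative Nqo2, a quinone reductase that uses other electron donors, had 15.2, 16.7 and 18.2 FPKM in the localized, invasive and metastatic libraries. The ratio of Nqo1 to Nqo2 was therefore 11.9, 0.801 and 2.13.

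Hmox1 encodes heme oxygenase 1, the inducible enzyme that opens heme to biliverdin, carbon monoxide and iron (chromosome 8, 75093621 to 75100589, plus strand). It had 84.9 FPKM in the localized, 16.8 FPKM in the invasive and 20.9 FPKM in the metastatic library. The localized library stood above the other pair, which lay close together. The localized over invasive ratio was 5.05 (4.71 to 5.42) and the localized over metastatic ratio 4.07 (3.83 to 4.33), while metastatic over invasive was 1.24 (1.14 to 1.35). The constitutive heme oxygenase gene Hmox2 had 29.9, 27.9 and 31.0 FPKM, so that Hmox1 was above Hmox2 in the localized library with a ratio of 2.84 and below it elsewhere, with 0.603 (invasive) and 0.673 (metastatic). Bach1, the heme-sensing repressor of Hmox1, went the other way, with 3.77 FPKM in the localized, 10.9 FPKM in the invasive and 9.73 FPKM in the metastatic library. Its part in the level of Hmox1 was not tested.

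Glutathione is made from cystine-derived cysteine, and its first and limiting step is run by a catalytic subunit, Gclc, with a modifier subunit, Gclm. Gclc (chromosome 9, 77754535 to 77794485, plus strand) had 45.3 FPKM in the localized, 75.7 FPKM in the invasive and 61.6 FPKM in the metastatic library. Gclm (chromosome 3, 122245557 to 122270732, plus strand) had 67.8, 30.1 and 34.9 FPKM in the same order. The subunit genes thus differed in opposite directions: Gclc was lowest and Gclm highest in the localized library. Gclm was 2.25-fold higher in the localized than the invasive library (2.08 to 2.44) and 1.94-fold higher than in the metastatic library (1.80 to 2.09). For Gclc the invasive library was 1.67-fold (1.62 to 1.72) and the metastatic library 1.36-fold (1.32 to 1.40) above the localized library, both within 2-fold. The ratio of Gclc to Gclm in FPKM was 0.668, 2.52 and 1.76 in the localized, invasive and metastatic libraries. FPKM is a value per length, and coding transcripts of Gclm run from 877 to 5589 bases. The ratio thus compares the libraries and does not give the amounts of the subunit RNAs.

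Slc7a11, the cystine-glutamate exchanger that brings in cystine (chromosome 3, 49892526 to 50443614, minus strand), had 18.3 FPKM in the localized, 8.76 FPKM in the invasive and 5.95 FPKM in the metastatic library. In each library its level was below that of every other member. The localized library was 2.09-fold above the invasive library (1.92 to 2.27) and 3.08-fold above the metastatic library (2.80 to 3.39). On the log2(FPKM + 1) scale the difference from the invasive library was -0.98, just short of the threshold, as was that of Gclm for metastatic against localized (-0.94). Of the calls past it, Gclm for invasive against localized (-1.15) was the nearest, followed by Nqo1 for metastatic against invasive (1.47) and Slc7a11 for metastatic against localized (-1.47). The heavy chain Slc3a2, which pairs with Slc7a11 and with other amino acid carriers, had 94.2, 78.0 and 67.7 FPKM. The ratio of Slc7a11 to Slc3a2 was 0.194, 0.112 and 0.0879 in the localized, invasive and metastatic libraries.

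Of the members of the thioredoxin arm, Txnrd1 and Srxn1, neither was past 2-fold in any pair. Txnrd1, the cytosolic thioredoxin reductase (chromosome 10, 82833951 to 82897712, plus strand), had 83.2 FPKM in the localized, 79.7 FPKM in the invasive and 84.9 FPKM in the metastatic library. All 3 counting intervals of its ratios included 1, for example 0.888 to 1.03 for invasive over localized. They use its shortest coding transcript, of 581 bases, and would be narrower with its coding transcript of 3622 bases. Whether they would then include 1 was not tested. At least as wide a range over the libraries was seen in 95.4% of genes. Srxn1, the sulfiredoxin that repairs overoxidized peroxiredoxins (chromosome 2, 152105516 to 152111376, plus strand), had 46.0, 24.9 and 29.0 FPKM. The localized library was 1.85-fold above the invasive (1.77 to 1.94) and 1.59-fold above the metastatic library (1.52 to 1.66), both within 2-fold. Peroxiredoxin 1, Prdx1, a substrate of sulfiredoxin, had 1118, 742 and 780 FPKM in these libraries, and the ratio of Srxn1 to Prdx1 stayed between 0.0335 and 0.0412.

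The metallothioneins were the most abundant members. Mt1 (chromosome 8, 94179082 to 94180327, plus strand) had 602, 622 and 802 FPKM in the localized, invasive and metastatic libraries, and Mt2 (chromosome 8, 94172664 to 94173568, plus strand) had 464, 398 and 489 FPKM. Both were at percentile 98.3 or higher of the genes counted in every library and were highest in the metastatic library. The ratio of metastatic to invasive was 1.29 (1.25 to 1.32) for Mt1 and 1.23 (1.19 to 1.27) for Mt2. Against the localized library, Mt1 had ratios of 1.03 (invasive) and 1.33 (metastatic), and Mt2 of 0.858 and 1.05. The genes are neighbours, 5513 bases apart with no annotated gene between them. Their main transcripts share 72.3% of aligned bases and no run of 50 bases, so reads of that length can be told apart. An antisense gene, Gm45774, covers 432 of the 588 exon bases of Mt2, and no source used here says whether counting used strand, so its reads cannot be told apart from those of Mt2. Mtf1, the zinc sensor, had 3.29, 2.62 and 2.37 FPKM in the localized, invasive and metastatic libraries.

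**Figure D2:**
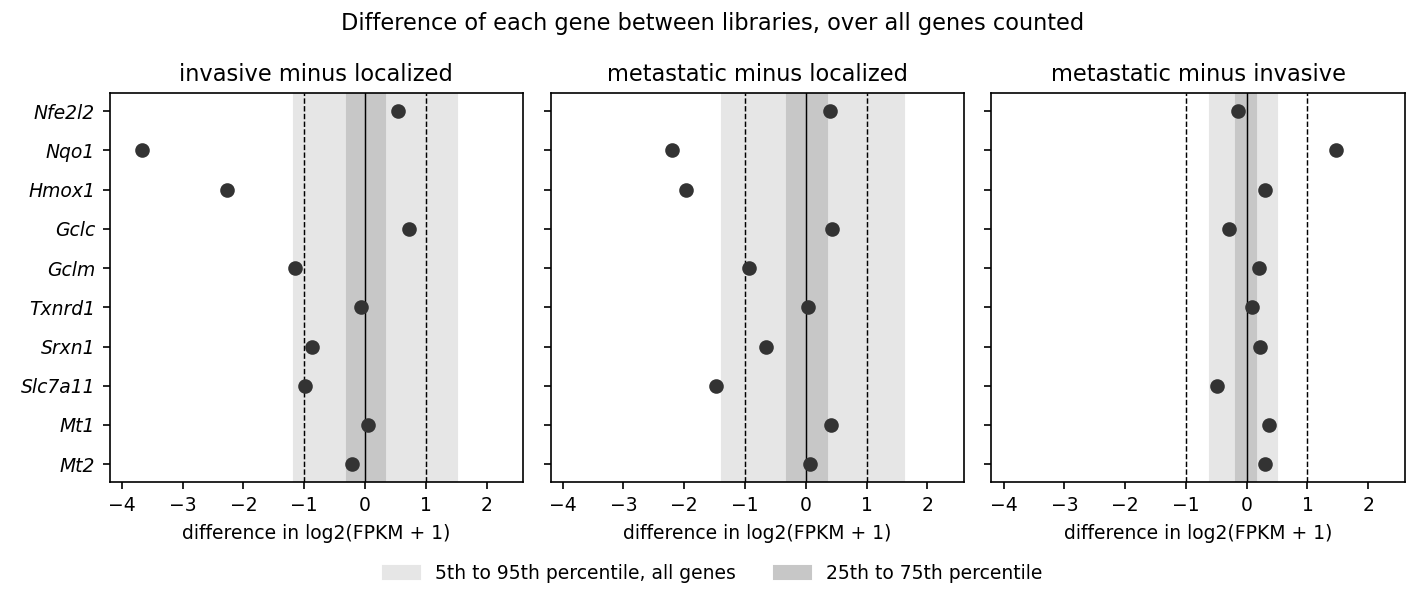
Difference in log2(FPKM + 1) of each gene for the 3 pairs of libraries, with the 5th to 95th and the 25th to 75th percentile of all 11404 genes in light and dark grey and dashed lines at 2-fold. Nqo1 and Hmox1 lie left of the grey bands in both comparisons with the localized library, and Slc7a11 does for metastatic minus localized, at -1.47. Nqo1 lies right of the bands for metastatic minus invasive, at 1.47.

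In each library the order of levels began with Mt1 and Mt2. In the localized library Nqo1 followed at 182 FPKM, above Nfe2l2 at 147, and Slc7a11 was last. In the invasive library Nqo1, at 13.4 FPKM, was next to last, below Hmox1 at 16.8, while Nfe2l2 was the third. In the metastatic library the neighbours Nqo1 (38.7 FPKM) and Gclm (34.9 FPKM) stood between Gclc at 61.6 and Srxn1 at 29.0. Nqo1 was at percentile 96.2 of the genes counted in the localized library, at 49.3 in the invasive library and at 79.0 in the metastatic library. The localized library was the highest of the 3 for 5 members, the metastatic library for 3 and the invasive library for 2, where it was highest for 41.6%, 31.3% and 27.2% of all genes in the same order of libraries. With no replicates, whether neighbours in these orders differ beyond the spread between cultures is not known.

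**Figure D3:**
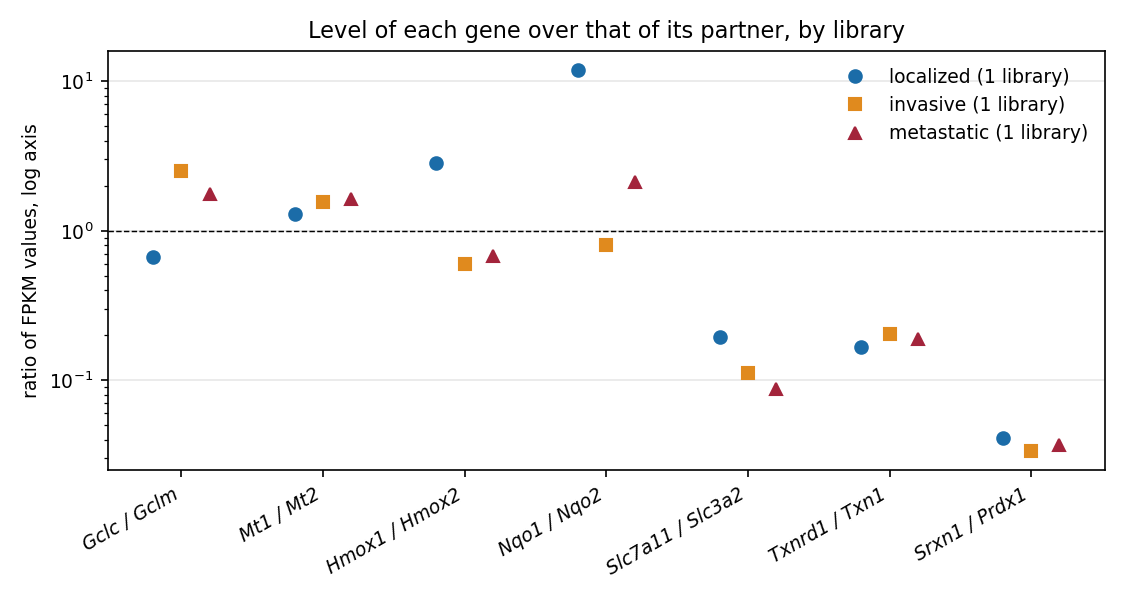
Ratio of the FPKM of each gene to that of its partner (log axis) in the 3 libraries, 1 library each, with a dashed line at equal FPKM. Gclc to Gclm lies below the line only in the localized library (0.668), and Hmox1 to Hmox2 lies above it only there (2.84).

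The genes whose 3 values were most like those of a member were found by Euclidean distance between centred log2(FPKM + 1) values among 8874 genes with a mean of at least 5 FPKM. With 3 libraries such a likeness rests on few points. For Nqo1 they were Twist1, a mesenchymal transcription factor (61.9, 6.13 and 13.5 FPKM in the localized, invasive and metastatic libraries, distance 0.40), the glypican Gpc4 (distance 0.46) and Pthlh, parathyroid hormone-like hormone (0.46). For Hmox1 they were Wipf1 (0.06), the matrix protein genes Ltbp4 (0.09) and Matn2 (0.10), and for Slc7a11 the interferon-induced Oas1a (0.01), the G protein subunit Gnb4 (0.04) and Spsb1 (0.04).

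Among 16 regulators of Nrf2, 15 passed the filter, and 2 were at least 2-fold higher in both the invasive and the metastatic library than in the localized library, with 0 lower. These were Bach1, given above, and the related factor Nfe2l3, with 0.573, 5.14 and 9.75 FPKM in the localized, invasive and metastatic libraries. The inhibitor Keap1 had 31.2, 27.0 and 24.97 FPKM, and the small Maf gene Maff had 18.3, 29.4 and 27.5 FPKM. Btrc, a subunit of another ligase that acts on Nrf2, had 6.27, 4.63 and 3.70 FPKM. The list had a median difference from the localized library of 0.17 (invasive) and 0.08 (metastatic). Over all genes counted, 8.78% were higher and 6.07% lower in the invasive library, and 9.08% and 7.29% in the metastatic library.

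Further genes of glutathione synthesis and use went both ways. Of 13 past the filter among 15 listed, 2 were higher and 2 lower in the invasive than the localized library, and 3 higher and 1 lower in the metastatic library, with medians of -0.04 and -0.01. Among all genes the shares were 8.78% higher and 6.07% lower (invasive), and 9.08% and 7.29% (metastatic). The gastrointestinal glutathione peroxidase Gpx2 had 0.0246 FPKM in the localized library, about a single fragment, against 6.67 FPKM in the invasive and 5.13 FPKM in the metastatic library. Gpx8, a peroxidase of the endoplasmic reticulum, had 100.5, 27.2 and 29.0 FPKM, and the oxoprolinase Oplah 5.31, 1.14 and 2.16 FPKM. Chac1, which degrades glutathione, had 5.14, 18.1 and 10.9 FPKM.

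Glutathione S-transferases, which join glutathione to electrophiles, differed among themselves. Of 20 past the filter among 22 listed, 6 were at least 2-fold higher and 1 lower in the invasive library than the localized library. In the metastatic library 7 were higher and 1 lower. Of all genes, 8.78% and 9.08% were higher and 6.07% and 7.29% lower, in the same order of libraries. The other 13 and 12 were within 2-fold, and the list medians were -0.16 and 0.15. The 4 with the widest range over the libraries are named here. Gstt1 had 1.27 FPKM in the localized, 29.2 FPKM in the invasive and 41.1 FPKM in the metastatic library, Gsta3 2.19, 28.5 and 60.5 FPKM, Gstt3 1.95, 22.3 and 30.03 FPKM and Gsta4 128, 406 and 559 FPKM. These 4 enzymes were thus lowest in the localized library, where Nqo1, Hmox1 and Gclm were highest. The transferase called lower, Gsta2, went the other way, with 3.50 FPKM in the localized, 0.144 FPKM in the invasive and 0.170 FPKM in the metastatic library.

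In the thioredoxin and peroxiredoxin list all 16 genes passed the filter. Against the localized library, 1 was higher in the invasive library, 2 were higher in the metastatic library and 0 were lower in either. The medians were -0.19 and -0.09. For all genes, beside this list and the next, the shares were 8.78% higher and 6.07% lower (invasive), then 9.08% and 7.29% (metastatic). The thioredoxin inhibitor Txnip had 72.1, 262 and 147 FPKM in the localized, invasive and metastatic libraries, and the peroxiredoxin Prdx6 72.5, 132 and 199 FPKM. Prdx4 (221, 186 and 129 FPKM) and Prdx5 (331, 259 and 213 FPKM) stayed within 2-fold. Of 7 genes that supply NADPH, 1 was higher in the invasive library, the malic enzyme Me1 (31.4, 77.9 and 57.4 FPKM), and 0 in the metastatic library, with medians of 0.29 and 0.50. The pentose phosphate enzymes Taldo1 (180, 259 and 293 FPKM) and Tkt (122, 220 and 183 FPKM) were within 2-fold, as was Idh1 (57.1, 69.8 and 81.4 FPKM).

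Detoxification and efflux genes numbered 23 past the filter of 26 listed. In the invasive library 5 were higher and 3 lower than in the localized library, against 8.78% and 6.07% of all genes. In the metastatic library 7 were higher and 3 lower, against 9.08% and 7.29%. The list medians were 0.13 and 0.54. The conjugate exporter Abcc3 had 3.54 FPKM in the localized, 38.8 FPKM in the invasive and 47.0 FPKM in the metastatic library, and the aldo-keto reductase Akr1c13 1.495, 12.4 and 13.3 FPKM. Ptgr1, a reductase of alkenals and prostaglandins, went with Nqo1 in being highest in the localized library, at 115, 24.1 and 26.4 FPKM. The drug exporter Abcg2 had 0.974, 0.241 and 6.63 FPKM. It and Aldh3a1 were the 2 genes of the list at least 2-fold higher in the metastatic than the invasive library. Of all genes, 1.33% were higher in that comparison.

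**Figure D4:**
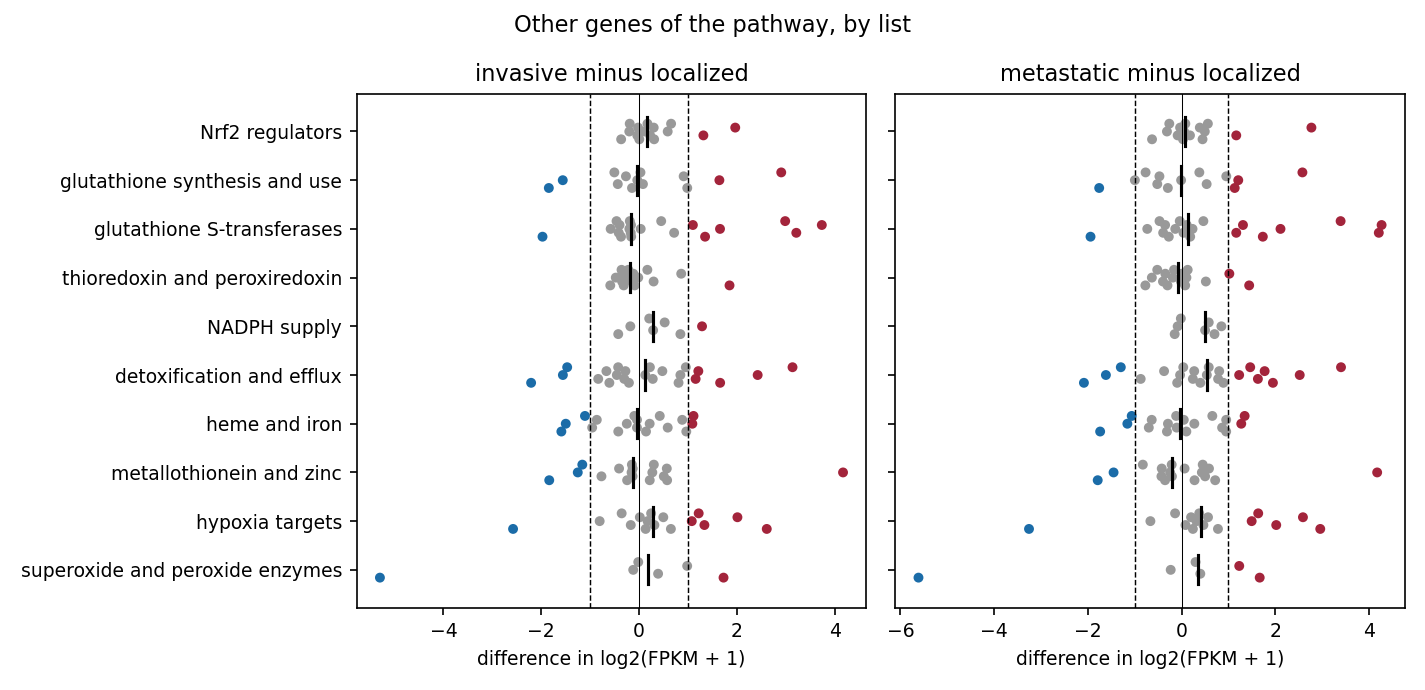
Difference in log2(FPKM + 1) of the genes past the filter in 10 lists, for invasive minus localized and metastatic minus localized. Each point is a gene, red at least 2-fold higher, blue at least 2-fold lower, grey within, black bars mark list medians and dashed lines mark 2-fold. Every list median lies between the dashed lines, and the glutathione S-transferases hold 6 and 7 red points and 1 blue point each.

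Genes of heme and iron handling were split. All 18 of the 20 listed genes that were found in the table passed the filter, with 2 higher and 3 lower than the localized library in each of the other libraries, and medians of -0.04 and -0.03. For all genes, beside this list and the next, the shares were 8.78% higher and 6.07% lower (invasive), then 9.08% and 7.29% (metastatic). The heme-binding protein Hebp1 had 48.2, 15.4 and 13.8 FPKM in the localized, invasive and metastatic libraries and the iron reductase Steap3 24.3, 7.93 and 11.1 FPKM, so both were highest in the localized library, as Hmox1 was. Ncoa4, the receptor that delivers ferritin for breakdown, had 34.8, 76.4 and 90.2 FPKM, and the porphyrin transporter Abcb6 4.18, 8.54 and 11.5 FPKM. The metallothionein and zinc list had 17 of 19 genes past the filter, with 1 higher and 3 lower in the invasive library, then 1 higher and 2 lower in the metastatic library, and medians of -0.14 and -0.20. The intestinal zinc importer Slc39a4 had 7.25, 147 and 148 FPKM, the zinc exporter Slc30a4 45.3, 18.4 and 15.9 FPKM, and Slc39a8 3.29, 0.916 and 1.42 FPKM. Mt3, the metallothionein known from brain, had 3.78, 0.339 and 0.385 FPKM and so did not follow its relatives Mt1 and Mt2.

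Targets of the hypoxia factors, which cobalt stabilizes, were listed because the treatment text names cobalt chloride. All 16 passed the filter, with 5 higher and 1 lower than the localized library in each of the other libraries and medians of 0.28 and 0.42. The shares of all genes were 8.78% higher and 6.07% lower (invasive), and 9.08% and 7.29% (metastatic). The prolyl hydroxylase Egln3 had 24.2, 152 and 195 FPKM in the localized, invasive and metastatic libraries, adrenomedullin, Adm, 2.58, 8.03 and 20.6 FPKM and Pfkfb3 4.89, 11.4 and 22.9 FPKM. Carbonic anhydrase 9, Car9, went against them with 48.1, 7.23 and 4.15 FPKM, and was highest in the localized library with Hmox1. No untreated partner was analysed here, so a response to cobalt was not tested.

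The libraries also differed in markers of cell type. The 8 epithelial markers summed to 1212, 6302 and 6797 FPKM in the localized, invasive and metastatic libraries, with 5, 7 and 7 of the 8 at 1 FPKM or more. The keratin Krt8 had 765, 2356 and 2247 FPKM and Krt19 181, 1970 and 2365 FPKM in these libraries, whereas Krt7 had 0.793, 598 and 1077 FPKM. Sox9 (17.5, 23.3 and 11.4 FPKM) was lowest in the metastatic library, and Epcam was at or below 2.63 FPKM in all 3. The 6 fibroblast markers summed to 439, 80.9 and 5.52 FPKM, highest in the localized library as were Nqo1, Hmox1 and Slc7a11. Col1a1 had 162, 46.3 and 3.45 FPKM and Col1a2 177, 33.4 and 0.0833 FPKM, which is the order of Slc7a11, and Pdgfra had 42.7, 1.09 and 1.97 FPKM, which is the order of Nqo1 and Hmox1. Their part in the differences of the members was not tested, and in such libraries fewer cells of a type and less RNA per cell cannot be told apart. Of the macrophage markers, Ptprc, Csf1r, Lyz2, Cd163 and Tyrobp were at or below 0.197 FPKM in every library whereas Cd68 had 4.82, 10.5 and 9.93 FPKM in the localized, invasive and metastatic libraries. The 6 hepatocyte markers summed to at most 0.0586 FPKM and the 6 erythroid markers to at most 0.923 FPKM in any library.

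Some named genes share sequence with other annotated genes, which makes their values less certain. Among the members, 45.5% of the windows of 50 bases in the Mt2 transcript were shared with Gm45774, against 2.03% for Slc7a11, 0.776% for Gclm and 0 for the other 7. Among the genes of the lists named above, the share was 90.3% for Abcb6, 47.7% for Hmox2, 43.1% for Ncoa4, 32.8% for Me1, 29.7% for Prdx5, 28.6% for Akr1c13, 26.0% for Gstt3, 18.9% for both Gpx2 and Nqo2 and 18.4% for Txnip, and at most 10.9% for the others checked that are named above.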

How the data were processed

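Per the labels, Trizol RNA (1 ug of total RNA) went into Illumina TruSeq RNA libraries. The authors deposited 1 table of FPKM per gene with a column per library, the unit being given by its name. Cufflinks 2.2.1, STAR 2.5.2a and FastQC 0.11.2 are named in the submitters' processing notes with the build GRCm38, without their roles. The lowest deposited FPKM was 0.1 in each column, and 0.1 was subtracted before every computation. Of 22784 entries, 27 with a date number in place of a symbol and 20 short RNA genes were left out. A further allele of the genotype label is not reported here.

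Differences are in log2(FPKM + 1), which understates the change of low genes. The filter kept genes with a mean of at least 1 FPKM. Among 2365 genes with a single transcript of 1000 to 6000 bases (GENCODE M21), low FPKM values fell on steps of whole fragments, within 0.15 of a fragment for 85.8%, 85.8% and 83.4% of the genes in range in the localized, invasive and metastatic libraries. The steps gave estimated depths of 46000000, 41400000 and 43300000 fragments. Counting intervals (95%, exact Clopper-Pearson) use these depths and the shortest coding transcript over 500 bases, which gives the widest interval, and they cover counting error only. The depth estimate and the calls were tested on simulated data. Computation used Python 3.11.15, numpy 2.4.6, scipy 1.17.1, pandas 2.3.3 and biopython 1.88.

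The members and lists were chosen with earlier results of these data known. All 10 members are named, with up to 4 genes of each list (the widest range over the libraries), Keap1, Bach1, Hmox2, Mtf1 and Slc3a2, the 3 genes most like each of 3 members, and markers. Nqo2, Prdx1, Txn1, Aldh3a1 and Gsta2 were chosen after their values were seen. Alternatives were another pseudocount, the offset kept, rescaled libraries, a 1.5-fold threshold and other filters.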

Additional observations from a re-analysis of the deposited data

How the results depend on the processing

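With 1 library per stage, leaving out a replicate could not be done. No paired analysis was possible because each group has a single library. The counts of members called were the same as reported with the offset kept, with libraries rescaled by median ratio and with no filter. They were also the same with a filter of at least 5 FPKM in the highest library. A pseudocount of 0.1 added Slc7a11 to the members lower in the invasive than the localized library, which made 4. Of all genes, 7.36% were lower in that setting, and the other counts of members were the same. The shares of all genes shifted with the setting, for example to 3.48% lower in the invasive library with no filter. At a threshold of 1.5-fold, 5 members were lower in the invasive than the localized library (Nqo1, Hmox1, Gclm, Slc7a11 and Srxn1) and 1 was higher (Gclc), where 11.9% and 15.1% of all genes were. At that threshold 5 members were lower in the metastatic than the localized library, where 14.1% of all genes were. Of 180 values of single differences under these alternatives, 0 changed sign in a called gene. Of 360 counts for the other lists, 35 moved by more than 1.5 times, most of them at the 1.5-fold threshold. Depth does not limit the members, whose smallest estimated number of fragments was 577 (Slc7a11 in the metastatic library). The absence of replicates does.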

Other observations

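Superoxide and peroxide enzymes outside the Nrf2 set were listed as well, together with the carrier gene Ucp2 and the paraoxonase gene Pon2. All 6 passed the filter, with 1 higher (Ucp2) and 1 lower (Sod3) in the invasive library than in the localized library. In the metastatic library 2 were higher (Sod1 and Ucp2) and 1 lower (Sod3). Extracellular superoxide dismutase, Sod3, had 61.8 FPKM in the localized, 0.598 FPKM in the invasive and 0.283 FPKM in the metastatic library, whereas the cytosolic enzyme Sod1 had 212, 419 and 499 FPKM. Of the 50-base windows of the Sod1 transcript 23.1% are shared with Gm8566, so its values are less certain. The mitochondrial carrier Ucp2 had 32.8, 111 and 106 FPKM and the paraoxonase Pon2 21.2, 28.1 and 28.4 FPKM. Of the 150 distinct genes of all lists that passed the filter, 26 were at least 2-fold higher and 14 lower in the invasive library, and 31 higher and 12 lower in the metastatic library, both against the localized library, with medians of -0.01 and 0.12. Beside these counts and those of the 6 genes above, 8.78% of all genes were higher and 6.07% lower in the invasive library. In the metastatic library 9.08% of all genes were higher and 7.29% lower. Between the metastatic and invasive libraries 5 of the 150 were higher and 0 lower, against 1.33% and 1.67% of all genes.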
